A study of Mus musculus with 72 samples.

Results

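The collagens form a family of extracellular matrix proteins, and the 42 genes described here are all those on the array whose symbol is Col, a number, the letter a and a number. They were taken from 18194 genes that had at least 1 probe set (a group of short probes for 1 transcript) annotated with a single symbol, and each gene was represented by its brightest probe set, out of 82 collagen probe sets in all. RNA of Ts1Cje mice and of their disomic (wild-type) littermates on a C57BL/6 strain, taken from hippocampus, cerebellum and cerebral cortex, was hybridised to 72 Affymetrix whole-genome mouse arrays. Ts1Cje mice model Down syndrome and carry an extra copy of the distal mouse chromosome 16 segment from *Sod1* to *Zbtb21*, translocated to chromosome 12, in every cell. They were bred from Ts1Cje males and C57BL/6 females, and the disomic mice carry no such segment. Female mice of both genotypes, according to the labels, were sampled at postnatal day (P) 1, 15, 30 and 84, with 3 mice of each genotype at each age and 1 array for each region of a mouse. Values are on the log2 scale after the authors' gcRMA normalisation, so a difference of 1 is a doubling.

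Each collagen is a triple helix of alpha chains. Fibrillar collagens form the banded fibrils of skin, bone and the meninges, type IV collagen forms the sheet of basement membranes around blood vessels, and type VI forms beaded filaments beside cells. The FACIT collagens decorate fibrils, the transmembrane collagens sit in the cell surface, and the multiplexins are basement membrane proteoglycans. Healthy brain tissue holds little fibrillar collagen outside the meninges and the vessel walls.

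Arrays of P15 disomic mouse 3 went against their region labels. On an axis running from 0 in the hippocampus to 1 in the cerebellum, the array labelled cerebellum lay at -0.0124 and the array labelled hippocampus at 1.02. The mean of 8 cerebellum markers was 4.0 on the first and 10.9 on the second. Called differences between P15 and another age in those regions, and their counts, are therefore given with and without this displaced pair of arrays. Averages over the 4 ages in those regions also hold these arrays, and for single genes their values are given with them only. Elsewhere the labelled regions matched their markers, with all 8 cerebellum markers higher in cerebellum than in cortex and all 6 hippocampus markers higher in hippocampus than in cortex; of the 4 forebrain markers, 3 were lower in cerebellum than in cortex and 1 was higher. A further 3 arrays, of disomic replicate 3 at other ages (P1 cerebellum, P84 cortex and P84 hippocampus, so from other mice), were dim. Their upper quartiles were 4.97 to 5.51 against 5.65 to 5.93 on the others. *Xist*, the transcript of the inactive X, was above the array median only on the 3 arrays of P1 Ts1Cje replicate 3 (5.57 to 8.12, against 1.96 to 2.76 on the others). *Eif2s3y*, a gene of the Y chromosome, was at 2.16 to 2.90 on those 3 arrays and at 7.20 to 9.68 on the other 69, which goes against their female label. Array medians lay between 3.20 and 3.37. The number of arrays limits the precision. Replicates within a group were separate mice, and the p-values measure the spread between arrays within groups. Arrays of the 3 regions of a mouse entered the main fit as independent. With the mouse as a random block, 167 of 169 calls between ages and regions stayed.

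Differences were tested with limma on all 45101 probe sets at once. A gene was called where the moderated t was at least 4 in size and the Benjamini-Hochberg adjusted p was at most 0.05, the criteria of the study's methods. "Rose", "fell", "higher" and "lower" are used for called differences, averaged over both genotypes unless a genotype is named. A called difference stayed called when each of the 6 sets of arrays of 1 genotype and replicate number was left out in turn, unless the text names the sets whose removal ended the call.

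The region just before the start of transcription is shown for a pair of fibrillar genes that fell with age in the hippocampus, *Col1a2* and *Col3a1*, with short promoter motifs in capitals. The bases are the 250 before the start in RefSeq (GRCm38.p6, plus strand).
Col1a2, chr6:4505368-4505617: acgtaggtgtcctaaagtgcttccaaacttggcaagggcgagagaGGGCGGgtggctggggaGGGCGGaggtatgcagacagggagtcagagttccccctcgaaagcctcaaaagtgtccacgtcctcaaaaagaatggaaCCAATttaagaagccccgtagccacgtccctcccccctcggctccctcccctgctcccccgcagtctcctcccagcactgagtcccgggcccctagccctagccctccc
Col3a1, chr1:45311288-45311537: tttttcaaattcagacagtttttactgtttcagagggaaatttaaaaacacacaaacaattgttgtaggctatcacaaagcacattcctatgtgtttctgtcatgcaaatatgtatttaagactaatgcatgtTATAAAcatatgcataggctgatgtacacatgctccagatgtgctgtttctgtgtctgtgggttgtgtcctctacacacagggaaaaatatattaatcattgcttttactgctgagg
Motifs were searched on both strands. In *Col1a2* the letters CCAAT begin at position -109 and GGGCGG at -205 and -188, counted back from the start. *Col3a1* has TATAAA at -117 and neither of the other motifs. Of 33 family members with a window, 5 hold TATAAA, 13 hold CCAAT and 20 hold GGGCGG, while the shares among all 32851 promoters of this length are 12.4%, 33.8% and 32.7%. A match is a description of the letters and no evidence of a bound factor. The genes of the alpha-1 and alpha-2 chains of type IV collagen lie head to head on chromosome 8, with starts 21 bases apart, so that both transcripts begin in 1 stretch of 22 bases, shown on the plus strand because the pair is compared throughout.
Col4a1 and Col4a2, chr8:11312805-11312826: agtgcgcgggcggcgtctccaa
*Col4a6* and *Col4a5*, on chromosome X, are arranged the same way with starts 1343 bases apart. A single member lies on chromosome 16, *Col8a1*, outside the triplicated segment.

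A gene counted as above the arrays' median when its value minus the array's median, averaged over the 72 arrays, was over 0. This held for 24 of 42 collagens (57.1%) against 60.8% of all genes. By class these were 9 of 11 fibrillar genes (*Col1a1*, *Col1a2*, *Col2a1*, *Col3a1*, *Col5a1*, *Col5a2*, *Col5a3*, *Col11a1* and *Col27a1*) and 4 of 6 type IV genes (*Col4a1*, *Col4a2*, *Col4a5* and *Col4a6*). Among the rest, 2 of 5 type VI genes (*Col6a1* and *Col6a2*), 6 of 9 FACIT genes (*Col9a1*, *Col9a3*, *Col12a1*, *Col16a1*, *Col19a1* and *Col20a1*), 2 of 4 transmembrane genes (*Col23a1* and *Col25a1*) and 1 of 2 multiplexins (*Col18a1*) were above it. *Col7a1*, of the anchoring fibrils of skin, *Col26a1* and the 3 short-chain collagens were below. The members nearest the limit were *Col5a3* at 0.021 and *Col2a1* at 0.035 above it, and *Col26a1* at 0.016 and *Col22a1* at 0.020 below it. *Col4a1*, *Col4a2*, *Col9a3*, *Col16a1*, *Col23a1* and *Col27a1* exceeded the median on every one of the 72 arrays. *Col4a3*, *Col4a4*, *Col6a4*, *Col6a5*, *Col8a2*, *Col10a1* and *Col14a1* exceeded it on none. A probe set's brightness depends on its sequence, so levels are compared only within a gene.

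**Figure D1:**
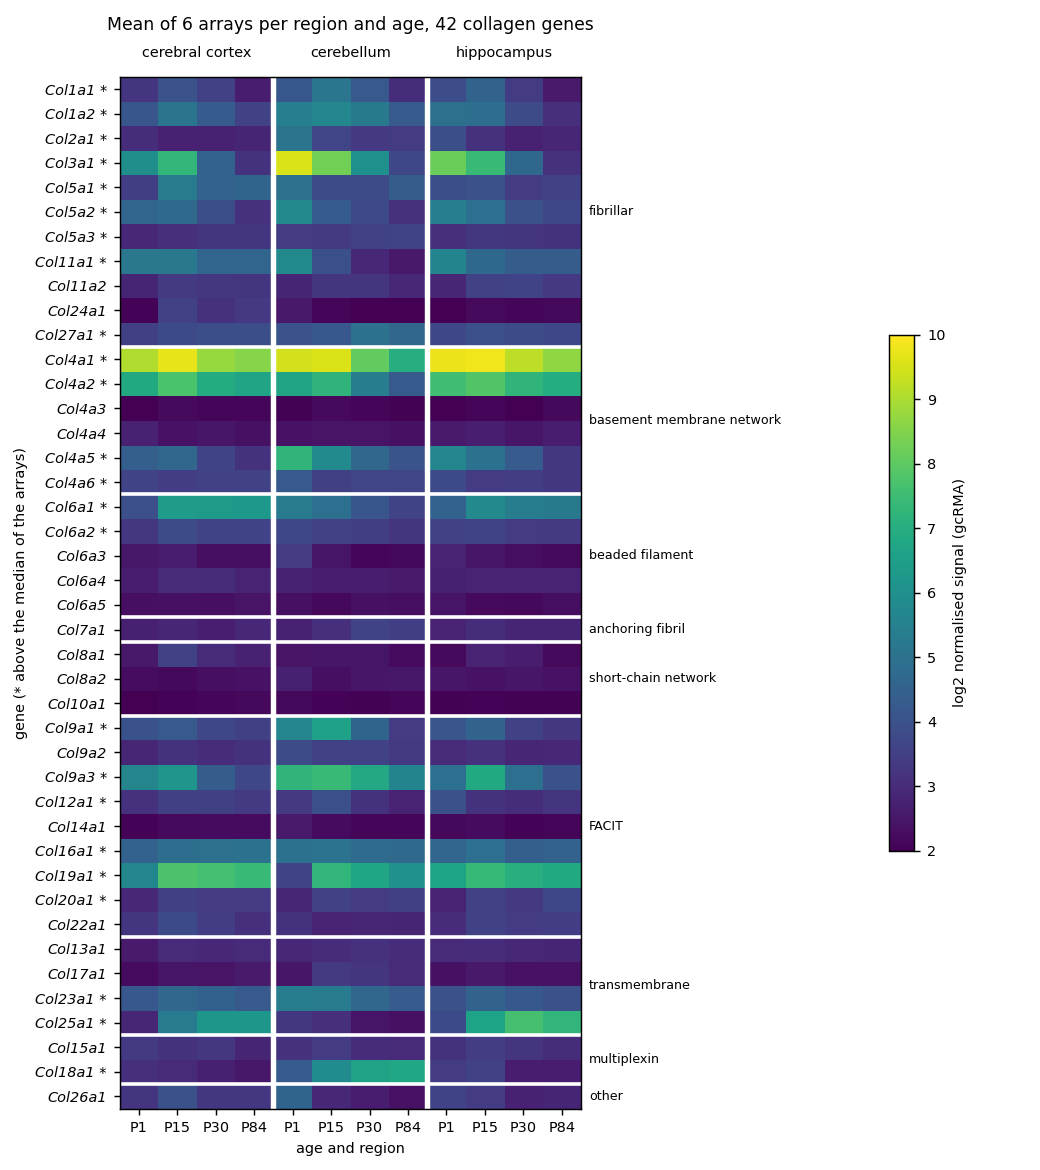
Colour gives the mean log2 signal of 6 arrays for each of the 42 collagen genes (rows, grouped by class, with an asterisk for those above the arrays' median) in each region and age (columns). The row of *Col3a1* darkens from P15 to P84 in all regions, that of *Col25a1* brightens in cortex and hippocampus, and that of *Col18a1* brightens in cerebellum, while *Col4a3* and *Col10a1* stay dark throughout.

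From P1 to P84 the family fell more often than it rose in the cerebellum, where 4 of 42 members rose and 17 fell. Of all genes there, 33.6% were called, 15.3% higher and 18.3% lower, and the collagens' median difference was -0.49 against -0.05 over all genes. In the hippocampus 2 rose and 10 fell, beside 30.9% of all genes called (13.7% higher and 17.2% lower) and a collagen median of -0.11. In the cortex 6 rose and 6 fell, beside 34% of all genes (15.6% and 18.4%), and the collagen median was 0.14. The difference between cerebellum and cortex in this change was called for 17 members, 16 with the lower value in the cerebellum and *Col18a1* with the higher, beside 17.7% of all genes (9.4% lower and 8.27% higher). Between cerebellum and hippocampus 6 members were lower and 2 higher, beside 15% of all genes (7.55% and 7.48%). Between hippocampus and cortex 3 were lower and 0 higher, beside 3.06% of all genes (1.92% and 1.14%). Over the 12 age comparisons 31 of 42 members were called at least once and 11 in none, beside 54.1% of all genes called at least once. None of the 169 calls in age and region comparisons and their differences changed direction under an alternative setting that tested it (1 fit per region tested 89 of them and a filter at a mean of 5 tested 48), and 112 of them stayed calls whichever of the 6 sets was left out.

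**Figure D2:**
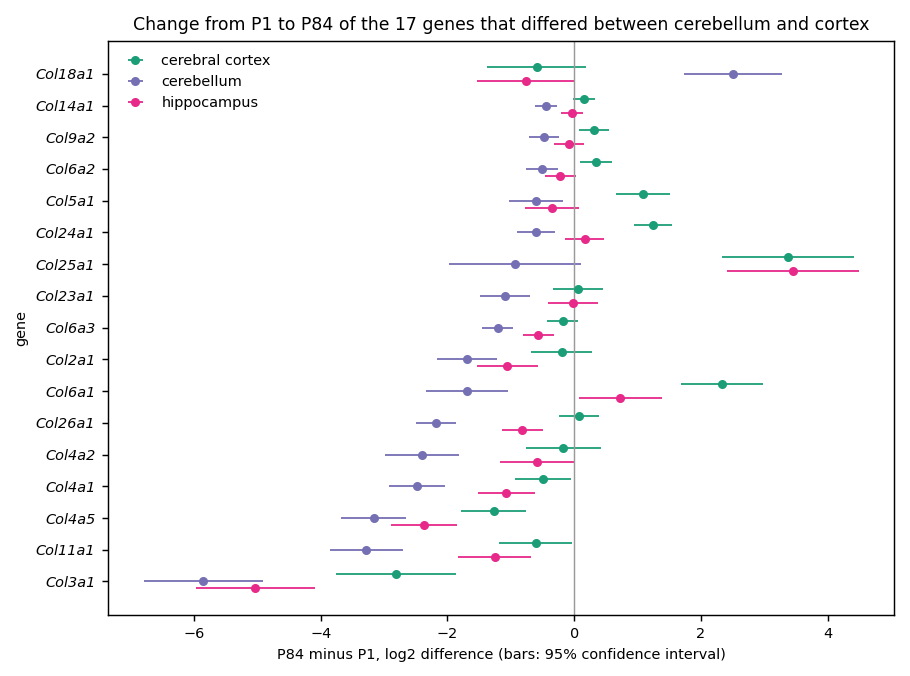
P84 minus P1 difference on the log2 scale, with its 95% confidence interval, in each region (colour) for the 17 collagen genes whose change differed between cerebellum and cortex. The cerebellum lies left of the cortex for 16 of them and right of it for *Col18a1*.

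From P1 to P15, 10 members rose and 1 fell in cortex, beside 30.5% of all genes called (15% higher and 15.5% lower). In cerebellum 4 rose and 9 fell, beside 27.5% (12.9% and 14.7%), and in hippocampus 4 rose and 0 fell, beside 25.7% (12.2% and 13.5%). Without the displaced arrays these counts were 11 and 1, 5 and 9, and 5 and 1, beside 25.3%, 23.2% and 19.9% of all probe sets called. From P15 to P30, 0 rose and 4 fell in cortex, beside 2.51% of all genes (1.21% and 1.3%), 1 and 5 in cerebellum, beside 6.15% (2.61% and 3.54%), and 0 and 3 in hippocampus, beside 2.63% (1.4% and 1.24%). Without the displaced arrays they were 1 and 4, 0 and 6, and 0 and 3, beside 2.22%, 4.74% and 1.78% of all probe sets. From P30 to P84 the cerebellum had 0 rises and 3 falls, beside 0.918% of all genes (0.352% and 0.566%). Cortex and hippocampus had no call by limma in that interval, beside 0.407% (0.11% and 0.297%) and 0.462% (0.055% and 0.407%) of all genes.

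*Col3a1*, the chain of the type III fibrils of vessel walls and meninges, had the largest fall among the 42 members between P1 and P84. In P1 cerebellum its 6 arrays had a lowest value of 8.23, a median of 9.56 and a highest of 10.52, and at P84 they had 3.35, 3.66 and 4.13. The groups did not overlap, and the fall was 5.85 (SE 0.47, adjusted p = 9.46e-16), or 57.8-fold. In hippocampus the values went from 7.46, 8.17 and 9.11 to 2.70, 3.17 and 3.56, a change of -5.03 (adjusted p = 2.48e-13). P84 values there and in cortex spanned the array medians. Between P15 and P30 alone the change was -2.29 in cerebellum, -2.79 in cortex and -2.74 in hippocampus, and without the displaced arrays it was -2.39 in cerebellum and -2.54 in hippocampus. A further change of -2.30 in cerebellum between P30 and P84 (adjusted p = 0.00315) was not called without Ts1Cje replicate 1 (-2.19, adjusted p = 0.0674) or disomic replicate 2 (-2.28, adjusted p = 0.0701).

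The cortex differed at P1 in that its arrays for *Col3a1* lay in separate ranges. Ts1Cje mice 1, 2 and 3 had 3.12, 8.18 and 3.05, and disomic mice 1, 2 and 3 had 9.04, 7.87 and 4.72. *Col1a2* had 2.22, 5.23 and 2.75 in Ts1Cje and 5.75, 5.62 and 3.22 in disomic mice. Ts1Cje mice 1 and 3 and disomic mouse 3 were low for both genes. *Col1a1* had 2.04, 3.74 and 2.25 in Ts1Cje and 4.72, 4.06 and 2.51 in disomic mice, with the same 3 arrays lowest. The mean of 12 meninges markers was 2.79, 5.29 and 3.12 in Ts1Cje and 4.96, 4.98 and 3.28 in disomic mice, and so was lowest on the same 3 arrays. The mean of 9 endothelium markers was 3.60, 4.15 and 3.07 in Ts1Cje and 4.31, 3.93 and 3.21 in disomic mice, and that of 10 mural cell markers 4.32, 4.87 and 4.19 in Ts1Cje and 4.88, 4.80 and 4.29 in disomic mice. Both were lowest on these 3 arrays too. In each group of P1 arrays the meninges mean ranged from 3.48 to 5.63 in cerebellum, 2.79 to 5.29 in cortex and 4.01 to 5.02 in hippocampus, and from 3.74 to 4.62 at all later ages. Of the meninges markers, *Igf2* was above the array median on 72 arrays and *Dcn* on 71, while *Foxd1* was above it on 7 and *Slc47a1* on 1. The part of meninges and vessel cells in these results was not tested, and in tissue samples fewer cells of a type and less RNA per cell cannot be told apart. From P1 to P84 *Col3a1* in cortex fell by 2.81 (adjusted p = 1.29e-06), and the fall was between 1.98 and 3.34 in size when sets of arrays were left out.

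**Figure D3:**
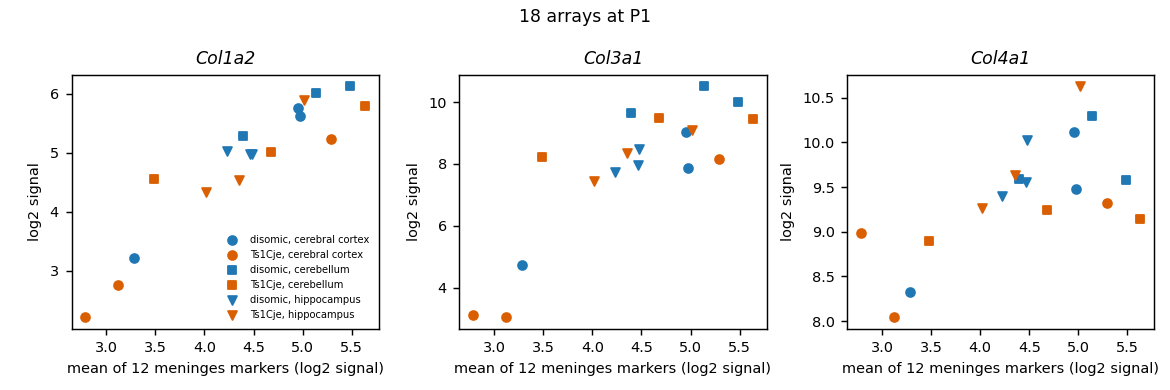
Log2 signal of *Col1a2*, *Col3a1* and *Col4a1* on each of the 18 P1 arrays against the mean log2 signal of 12 meninges markers on the same array, with region as symbol and genotype as colour. The 3 cortex arrays with a marker mean of 2.79 to 3.28 have *Col3a1* values of 3.05 to 4.72, below every other P1 array.

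*Col1a1* and *Col1a2* encode the chains of type I collagen, the main collagen of the meninges. Over the 24 group means they ran together with r = 0.909. *Col1a2* in hippocampus went from 4.33, 4.97 and 5.89 (lowest, median and highest of 6 arrays at P1) to 2.72, 3.12 and 3.54 at P84, and fell by 1.88 (SE 0.35, adjusted p = 1.02e-05). *Col1a1* there went from 3.33, 3.71 and 4.97 to 2.11, 2.61 and 2.88, a difference of -1.32 (adjusted p = 0.000692). Its call was lost without Ts1Cje replicates 1 or 3 or disomic replicates 1 or 2, with values between -1.50 and -1.13. Averaged over ages, *Col1a2* was higher in cerebellum than in cortex by 0.90 and than in hippocampus by 0.97. *Col1a1* was higher in cerebellum than in cortex by 0.80 (adjusted p = 3.58e-05, and 0.75 with no call without disomic replicate 2).

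Of the minor fibrillar chains, which join and regulate type I and type II fibrils, *Col11a1* and *Col5a2* fell in cerebellum by P84. *Col11a1* went from 4.55, 6.04 and 6.41 to 2.28, 2.54 and 2.80 there with no overlap, a fall of 3.28 (SE 0.29, adjusted p = 1.9e-14), with a fall of 1.89 before P15 (-2.15 without the displaced arrays). Its P84 values there lay below every array median. Its change lay below that in cortex (-2.67) and in hippocampus (-2.02). The latter difference was not called without Ts1Cje replicate 2 or disomic replicate 2. *Col5a2* fell by 2.63 in cerebellum, from 4.57, 6.07 and 6.66 to 2.95, 3.05 and 3.77, and by 1.72 in hippocampus. In cortex its difference was -1.47, and -1.31 with no call without disomic replicate 1. *Col2a1*, the cartilage collagen, went in cerebellum from 3.87, 4.93 and 6.62 to 3.17, 3.25 and 3.77, a fall of 1.69, and was higher there than in cortex by 1.04 and in hippocampus by 0.72 over all ages.

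*Col5a1* moved in opposite directions in the first weeks. In cortex its 6 arrays had 2.93, 3.51 and 4.09 at P1 and 4.50, 5.38 and 6.15 at P15, a rise of 1.84 (SE 0.21, adjusted p = 2.13e-10). In cerebellum it fell by 1.10 over the same days (-1.18 without the displaced arrays). The P84 minus P1 change in cerebellum lay below that in cortex (-1.69). Its cortical rise by P84 was 1.08, and 0.87 with no call without disomic replicate 3. *Col24a1*, a fibrillar gene below the median, rose in cortex from 1.84, 2.04 and 2.41 at P1 to 2.66, 3.24 and 4.17 at P84, by 1.25. Over all ages it was lower in cerebellum (-0.87) and hippocampus (-0.89) than in cortex. Its cerebellar difference of -0.60 was not called without the displaced arrays (-0.60), without the dim arrays (-0.56), or without 5 of the 6 sets. *Col5a3* and *Col27a1*, averaged over ages, were higher in cerebellum than in cortex by 0.38 and 0.67. *Col27a1* there went from a median of 4.17 at P15, or 4.20 without the displaced array, to 4.76 at P30, a difference of 0.82 whose call was lost without the displaced arrays (0.77), Ts1Cje replicate 2, or disomic replicates 2 or 3. Of the 11 fibrillar genes, 0 rose and 5 fell by P84 in cerebellum, 2 rose and 2 fell in cortex, and 0 rose and 6 fell in hippocampus. Of all genes, 15.3% rose and 18.3% fell in cerebellum, 15.6% and 18.4% in cortex, and 13.7% and 17.2% in hippocampus.

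**Figure D4:**
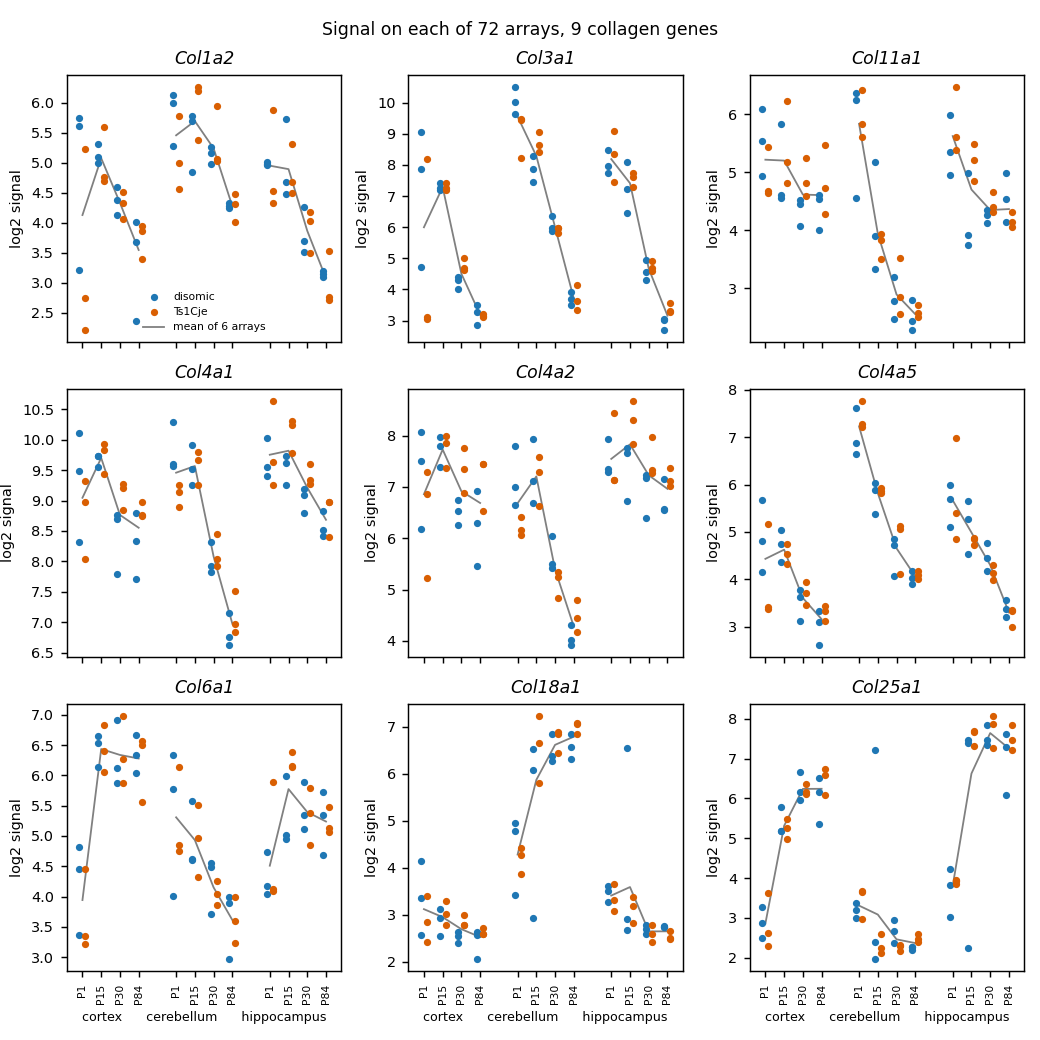
Log2 signal of 9 collagen genes on each of the 72 arrays by region and age, with genotype as colour and the mean of 6 arrays as a line. *Col3a1* and *Col4a1* in cerebellum and *Col25a1* in cortex and hippocampus show no overlap between P1 and P84, and the displaced P15 arrays stand out as single points for *Col18a1* and *Col25a1*.

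*Col4a1* and *Col4a2* encode the chains that make up most vascular basement membrane. In cerebellum *Col4a1* had 8.90, 9.41 and 10.29 at P1, 9.25, 9.59 and 9.91 at P15 (9.25, 9.51 and 9.80 without the displaced array), 7.82, 7.99 and 8.44 at P30 and 6.63, 6.90 and 7.52 at P84. The first ages overlapped and each later age lay lower, and it fell by 1.49 from P15 to P30 (-1.40 without the displaced arrays) and by 1.10 from P30 to P84. The change from P1 was -2.48 (SE 0.22, adjusted p = 4.57e-14), or 5.58-fold. *Col4a2* in cerebellum went from 6.07, 6.53 and 7.80 to 3.93, 4.24 and 4.81, a fall of 2.40 (SE 0.29, adjusted p = 6.1e-10), with -1.81 between P15 and P30 (-1.64 without the displaced arrays). The 2 genes, which share the head-to-head start shown above, had r = 0.939 over the 24 group means.

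In cortex *Col4a1* ran from 8.05, 9.15 and 10.12 at P1 to 7.71, 8.75 and 8.97 at P84, with groups that overlapped and a difference of -0.49 that was not called. *Col4a2* differed there by -0.17, also not called. The difference between cerebellum and cortex in the change was -1.99 for *Col4a1* (adjusted p = 1.37e-06) and -2.23 for *Col4a2* (adjusted p = 2.45e-05). Against hippocampus it was -1.41 and -1.82. These calls were lost without Ts1Cje replicates 1 or 2 or disomic replicate 2 for both genes, and for *Col4a1* also without disomic replicate 1 (-1.66 to -1.20). In hippocampus *Col4a1* differed by -1.07, and by -0.78 with no call without Ts1Cje replicate 3 and -0.96 without disomic replicate 1. *Col4a2* there differed by -0.58 with no call.

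*Col4a5*, of the alpha-3/4/5 and alpha-5/6 networks, fell by 3.17 in cerebellum (SE 0.26, adjusted p = 1.79e-15), or 8.98-fold, from 6.64, 7.25 and 7.76 to 3.89, 4.06 and 4.18. It fell by 2.37 in hippocampus. In cortex its difference was -1.27, and -0.93 with no call without Ts1Cje replicate 2 and -1.09 without disomic replicate 1. Over all ages *Col4a5* was higher in cerebellum than in cortex by 1.49 and in hippocampus by 0.88. *Col4a6* fell by 0.70 in cerebellum between P1 and P15, from a median of 4.13 to 3.53 (-0.71 without the displaced arrays), and ran with *Col4a5* at r = 0.656. *Col4a3* had no call in an age or region comparison. *Col4a4* differed by -0.36 in cortex from P1 to P15, and that call was lost without any of the 6 sets of arrays.

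*Col6a1*, a chain of the beaded filaments around vessels and nerves, moved in opposite directions in cortex and cerebellum. In cortex it had 3.22, 3.91 and 4.82 at P1, 6.05, 6.47 and 6.83 at P15 and 5.57, 6.42 and 6.66 at P84, a rise of 2.34 by P84 (SE 0.32, adjusted p = 2.04e-08), or 5.05-fold, with no overlap. In cerebellum it went from 4.01, 5.31 and 6.33 to 2.97, 3.75 and 3.99, a difference of -1.69 (adjusted p = 1.55e-05). That call was lost without Ts1Cje replicate 3 (-1.38) or disomic replicate 1 (-1.29). The difference between these changes was -4.03 (SE 0.46, adjusted p = 5.55e-10). In hippocampus the change of 0.73 was not called, and the change in cerebellum lay below it (-2.42). *Col6a2* had 2.97, 3.25 and 3.54 at P1 in cortex and 3.56, 3.81 and 4.15 at P15, a difference of 0.56 whose call was lost without Ts1Cje or disomic replicate 3. *Col6a3*, below the median, fell by 1.21 in cerebellum (adjusted p = 2.19e-12).

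Markers of vessel cells were read on the same arrays. Mural cell markers had a mean of 4.19 to 4.88 on P1 cortex arrays and 5.37 to 5.61 at P15, and endothelium markers 3.07 to 4.31 and 4.50 to 4.85. Of 10 mural markers, 6 rose and 0 fell in cortex from P1 to P15, and of 9 endothelium markers 3 rose and 0 fell, beside 30.5% of all genes called (15% higher and 15.5% lower). In cerebellum *Col4a1*, *Col4a2* and *Col4a5* fell from P1 to P84. Mural means there were 4.52 to 4.88 at P1, 5.15 to 5.79 at P15 (5.15 to 5.40 without the displaced array) and 5.06 to 5.26 at P84. Endothelium means at these ages were 3.46 to 4.34, 4.28 to 4.70 (with or without that array) and 4.11 to 4.35. *Rgs5* and *Cldn5* were above the array median on 72 arrays, whereas *Anpep* was on 0 and *Cdh5* on 4. The part of vessel density in the collagen changes was not tested.

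The FACIT chains of type IX collagen, which coat cartilage fibrils, were higher in cerebellum than in the other regions when averaged over the 4 ages. *Col9a1* there had a lowest, median and highest of 4.26, 5.84 and 6.42 at P1 and 3.02, 3.42 and 3.77 at P84, a fall of 2.23. At P15 the Ts1Cje cerebella had 6.63, 7.53 and 8.10 and the disomic ones 6.19, 6.69 and 4.42, the last on the displaced array. From P15 to P30 it fell by 2.00 (-2.34 without that array). The P15 minus P1 difference in cerebellum was 0.95 with no call on all arrays, and 1.29 (adjusted p = 4.12e-06) without the displaced pair. On the average over ages, *Col9a1* was higher in cerebellum than in cortex by 1.19 and than in hippocampus by 1.18. At P84 its arrays ran from 2.89 to 4.07 in cortex and from 2.92 to 3.80 in hippocampus, and so overlapped those of cerebellum. *Col9a3* was higher in cerebellum by 1.80 and 1.58, and it fell by 1.65 in cerebellum and 1.94 in cortex between P1 and P84. In hippocampus *Col9a3* rose by 1.94 by P15, from 4.48, 4.65 and 6.26 to 6.15, 6.63 and 8.28 (6.15, 6.50 and 7.24 without the displaced array), and changed by -1.93 by P30. Without the displaced arrays those values were 1.69 and -1.67, both still called. *Col9a2* was higher in cerebellum by 0.53 and 0.62.

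*Col19a1*, a FACIT collagen that interneurons make, had the largest P15 minus P1 difference of the members on all arrays. In cerebellum it had 2.55, 3.65 and 4.53 at P1 and 6.66, 7.42 and 7.57 at P15 (a median of 7.49 without the displaced array), a rise of 3.65 (SE 0.25, adjusted p = 7.75e-18), or 3.68 without the displaced arrays. Its P1 values there spanned the array medians. In cortex it rose by 2.09, from 5.25, 5.68 and 6.09 to 7.46, 7.67 and 8.10. In hippocampus its level was already 5.85, 6.61 and 7.32 at P1, and the P84 difference of 0.25 was not called. The P84 minus P1 change exceeded that of hippocampus by 2.18 in cerebellum. Between hippocampus and cortex it differed by -1.48 (adjusted p = 0.00663), a call lost without Ts1Cje replicates 1 or 3 (adjusted p = 0.149 for the latter) or disomic replicate 2 (adjusted p = 0.12). Over all ages *Col19a1* was lower in cerebellum than in cortex (-1.20) and hippocampus (-1.07).

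*Col20a1* rose in each region by P15, by 0.69 in cerebellum, 0.63 in cortex and 0.75 in hippocampus (0.62 in cerebellum and 0.70 in hippocampus without the displaced arrays). In hippocampus it had 2.64, 2.76 and 3.09 at P1 and 3.54, 3.64 and 4.05 at P84, a rise of 0.93 (adjusted p = 4.98e-10). *Col12a1* and *Col16a1* had no call in any age or region comparison. *Col16a1* had medians between 4.43 and 5.13 in all 12 groups of region and age.

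Among the transmembrane collagens, *Col25a1*, made by neurons and found in amyloid plaques, separated forebrain from cerebellum. In cortex it had 2.29, 2.74 and 3.62 at P1 and 5.37, 6.33 and 6.73 at P84, a rise of 3.38 (SE 0.52, adjusted p = 2.24e-07), with P1 values that spanned the array medians. In hippocampus it went from 3.04, 3.89 and 4.24 to 6.10, 7.38 and 7.85, a rise of 3.45 (adjusted p = 1.71e-07), or 10.9-fold. In cerebellum it had 2.97, 3.28 and 3.67 at P1 and 2.19, 2.34 and 2.60 at P84, a difference of -0.94 that was not called (adjusted p = 0.145). The P15 cerebella had 2.11, 2.59 and 2.24 in Ts1Cje and 1.96, 2.40 and 7.22 in disomic mice, the last on the displaced array. With all arrays the P15 minus P1 difference in cerebellum was -0.22 with no call, and -1.06 (adjusted p = 9.36e-05) without the displaced pair. In hippocampus the same difference was 2.82 with all arrays and 3.68 (adjusted p = 1.04e-19) without them. In cortex it was 2.45, with the call lost without any of Ts1Cje replicates 1, 2 or 3. The P84 minus P1 change in cerebellum lay below that in cortex (-4.32) and hippocampus (-4.39), and over all ages *Col25a1* was lower in cerebellum (-2.36 and -3.52). *Col23a1* fell by 1.09 in cerebellum, from 4.95, 5.45 and 5.82 to 4.18, 4.24 and 4.54.

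*Col18a1*, whose C-terminal fragment is endostatin, showed the reverse. In cerebellum it had 3.42, 4.34 and 4.96 at P1 and 6.31, 6.85 and 7.08 at P84, a rise of 2.50 (SE 0.39, adjusted p = 2.54e-07), or 5.67-fold. Over all ages it was higher there than in cortex by 3.06 (SE 0.19, adjusted p = 1.36e-19) and than in hippocampus by 2.81. Its change exceeded that in cortex by 3.10 and that in hippocampus by 3.27. At P15 the displaced arrays had 2.92 under the cerebellum label and 6.55 under the hippocampus label. The P15 minus P1 difference in cerebellum was 1.59 with all arrays, 1.35 with no call without the dim arrays, and 2.15 (adjusted p = 3.69e-12) without the displaced pair. On all arrays its call was lost without any of 5 of the 6 sets.

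Of the members below the median, *Col26a1* had the strongest change, in cerebellum from 3.95, 4.61 and 5.10 to 2.26, 2.42 and 2.60, a fall of 2.18 (SE 0.16, adjusted p = 3.35e-17). It fell by 0.82 in hippocampus. Its change in cerebellum lay below those in cortex (-2.25) and in hippocampus (-1.36). *Col8a1*, a short-chain collagen of vessels, rose in cortex by 1.02 by P15. *Col17a1* rose in cerebellum by 0.87 by P15 (1.05 without the displaced arrays). In all, 8 members (*Col4a3*, *Col6a4*, *Col6a5*, *Col8a2*, *Col10a1*, *Col12a1*, *Col13a1* and *Col16a1*) were called in no age or region comparison.

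Averaged over ages, 14 collagens were higher and 9 lower in cerebellum than in cortex, beside 34.9% of all genes (17.2% higher and 17.7% lower). Without the displaced arrays they were 14 and 10, beside 30.5% of all probe sets. In cerebellum 15 were higher and 9 lower than in hippocampus, beside 32.6% (15.5% and 17.1%). In hippocampus 2 were higher and 3 lower than in cortex, beside 12.3% (6.13% and 6.15%). The 2 were *Col25a1*, by 1.17, a call lost without 5 of the 6 sets, and *Col4a5*, by 0.61, a call lost without Ts1Cje replicates 1 or 3 or disomic replicate 3. Lower in hippocampus were *Col5a1* (-0.76), *Col24a1* (-0.89) and *Col8a1* (-0.50). *Col8a1* lost its call without disomic replicate 1. At single ages the counts between cerebellum and cortex differed from the average. At P1, 14 were higher and 1 lower in cerebellum (beside 18% of all genes called), and at P30 7 and 6 (21.3%). At P84, 2 were higher and 8 lower (21.4%). At P15 they were 4 and 8 (18.6%), or 7 and 8 without the displaced arrays (18.2% of all probe sets). Against hippocampus, 10 were higher and 1 lower at P1 (14.1%), and 6 and 5 at P84 (21.1%).

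Between genotypes no collagen was called in any of the 12 comparisons of region and age by limma. The paper, with the same thresholds, lists *Col20a1* among its differentially expressed genes, in a cluster of interferon-related pathways. Here each gene was tested by its brightest probe set only, which for *Col20a1* was 1 of 4. Whether that choice underlies the difference from the paper was not tested. Of the 504 limma tests here, 47 had an unadjusted p under 0.05, or 9.33% against 5.9% over all genes, and 0.103% of all gene tests were called. The smallest adjusted p was 0.0684. The 47 were unevenly spread, with 14 in P1 cerebellum, 8 in P1 cortex, 10 in P15 hippocampus and 5 in P15 cerebellum. Both P15 counts hold the displaced arrays. Every P1 comparison holds Ts1Cje replicate 3, whose *Xist* and *Eif2s3y* values were opposite to those of all other arrays. Averaged over the 4 ages, 0 of 126 tests were called, 11 had an unadjusted p under 0.05 (8.73% against 6.03%), and the smallest adjusted p was 0.195. Called shares over all genes were 0.253% in cortex, 0.264% in cerebellum and 0.275% in hippocampus. A p above the threshold does not show equal levels. The 95% intervals reached up to 1.47 on each side of a single comparison, and up to 0.737 on each side of an average over ages.

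The largest difference was that of *Col3a1* in P1 cortex, -2.43 (SE 0.66, interval -3.76 to -1.10, adjusted p = 0.39), where the arrays given above lay in separate ranges with the meninges markers. It was called without Ts1Cje replicate 2 (-4.12, adjusted p = 2.55e-05), the single high Ts1Cje array, and without disomic replicate 3 (-3.67, adjusted p = 0.0307), the single low disomic one. *Col1a2* there differed by -1.46, and by -2.38 (adjusted p = 0.0359) without Ts1Cje replicate 2. *Col2a1* in P1 cerebellum was 4.99, 4.61 and 3.87 in Ts1Cje and 5.57, 4.88 and 6.62 in disomic mice, with overlapping groups. Its difference was -1.20 (adjusted p = 0.0684), -1.60 (adjusted p = 0.00719) without disomic replicate 2 and -1.20 (adjusted p = 0.011) without the displaced arrays of P15. The highest disomic value came from a dim array. *Col6a3* in P1 cerebellum differed by -0.57 (adjusted p = 0.0876).

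*Col19a1* in P84 hippocampus had 7.67, 7.46 and 7.29 in Ts1Cje and 7.09, 5.64 and 6.09 in disomic mice, with no overlap, a difference of 1.19 (adjusted p = 0.389). Over the 4 ages its difference in hippocampus was 0.66 (SE 0.18, interval 0.30 to 1.02, adjusted p = 0.195), and 0.86 (adjusted p = 0.0146) without disomic replicate 1. It was also called with the mean of all its probe sets (0.36, adjusted p = 0.0432). *Col9a3* in hippocampus over the 4 ages differed by -0.57 (adjusted p = 0.786). Without disomic replicate 1 its difference was -0.92 (adjusted p = 0.0468) and was called. The disomic P15 arrays behind both values include the displaced one, and without the displaced pair 0 members were called in this average. *Col9a1* in P15 cerebellum differed by 1.66 (adjusted p = 0.474), a value that holds the displaced array at 4.42, and by 0.98 without it. *Col25a1* at P15 differed by 1.87 in hippocampus and -1.55 in cerebellum with the displaced arrays, and by 0.14 and 0.13 without them. *Col18a1* in P15 cerebellum went from 1.39 to 0.26. No difference in genotype effect between regions was called for a member. Spiked into simulated data of this size, changes of 1 on the log2 scale between 3 and 3 P1 cerebellum arrays were called for 70% of the altered probe sets and changes of 2 for 95%. The altered probe sets were drawn from the whole array, and the noise was independent, with a spread averaged over the 24 groups. These shares therefore do not carry over to members with a wider spread at P1, such as *Col3a1* in cortex.

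**Figure D5:**
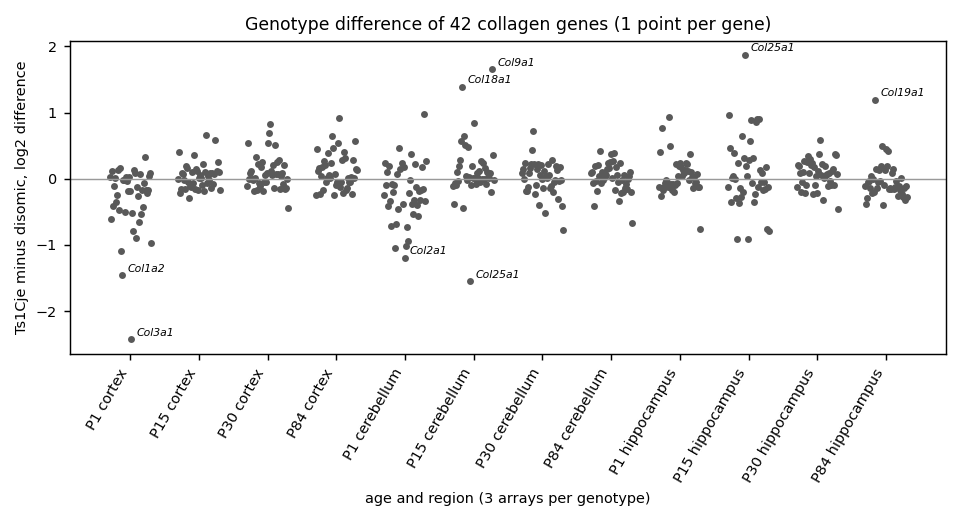
Ts1Cje minus disomic difference on the log2 scale (1 point for each of the 42 collagen genes) in each of the 12 combinations of age and region, with 3 arrays for each genotype; the points furthest from 0 are named. None of the points was called, and the lowest is *Col3a1* in P1 cortex at -2.43.

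The enzymes and partners of collagen were read from lists chosen with earlier results of these data known. Their counts from P1 to P84 stand beside 33.6% of all genes called in cerebellum (15.3% higher and 18.3% lower), 34% in cortex (15.6% and 18.4%) and 30.9% in hippocampus (13.7% and 17.2%). Among 25 genes for biosynthesis and crosslinking, 3 rose and 7 fell in cerebellum, 3 and 10 in cortex, and 2 and 9 in hippocampus. *Serpinh1*, the collagen chaperone, fell by 1.75 in cerebellum. *Plod2*, a lysyl hydroxylase, fell by 1.92 in cerebellum, 1.55 in cortex and 1.22 in hippocampus, and *Loxl1*, a crosslinking oxidase, by 2.37, 1.33 and 1.51. *P4ha1*, a prolyl hydroxylase, rose by 1.09, 0.95 and 1.40. *Adamts3*, a procollagen peptidase, fell by 3.81 in cortex and 2.66 in hippocampus.

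Of 11 basement membrane partners, none rose in any region, and 5 fell in cerebellum, 5 in cortex and 6 in hippocampus, beside the shares of 18.3%, 18.4% and 17.2% lower over all genes. *Nid1*, which links laminin to type IV collagen, fell by 4.79 in cerebellum, 1.90 in cortex and 3.09 in hippocampus. *Nid2* fell by 2.00, 1.05 and 2.01 and *Agrn*, the heparan sulphate proteoglycan agrin, by 1.96, 1.32 and 1.48. Of 10 receptors, 0 rose and 3 fell in cerebellum and 1 and 1 in each of the other regions. Rises and falls together were below the share of all genes called in each region. The falls alone were above the 18.3% lower over all genes in cerebellum and below the shares elsewhere. *Itgb1*, the beta-1 integrin chain, fell by 2.14 in cerebellum, and *Adgrg1*, the type III collagen receptor GPR56, by 2.06 in cerebellum, 1.14 in cortex and 1.24 in hippocampus. Of 8 fibril partners, 0 rose and 3 fell in cerebellum, 1 and 2 in cortex, and 0 and 2 in hippocampus.

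Over the same ages, and beside the same shares of all genes, 1 of 12 meninges markers rose and 4 fell in cerebellum, 2 and 0 in cortex, and 0 and 1 in hippocampus. *Igf2*, a growth factor of the meninges, fell by 2.08 in cerebellum and 2.50 in hippocampus. Of 8 choroid plexus markers 1 fell in cerebellum, 1 rose in hippocampus and none was called in cortex. Their mean was 3.40 to 5.56 in P1 cerebellum and 2.86 to 3.23 at P84. Of 10 mural markers 5 rose in cerebellum, 5 in cortex and 3 in hippocampus, and of 9 endothelium markers 2 rose in each, with no fall. Their part in the collagen changes was not tested.

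Genes whose pattern over the 24 group means was most like a member's, among 7751 with a mean of at least 5, are named as a description. For *Col4a1* they were *Nav1* (r = 0.924) and *Tubb2a* (0.897), for *Col25a1* *Kcna4* (0.979) and *Hpca* (0.973), and for *Col1a1* *Tor1aip2* (0.845), *Adam17* (0.829) and *Ctsl* (0.824). The points share their arrays, ages and regions.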

How the data were processed

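The authors hybridised biotin-labelled RNA of single brain regions to 72 one-colour arrays and deposited 1 table of log2 values, background-corrected and normalised with gcRMA over 45101 probe sets; gcRMA shrinks dim probe sets towards a floor, so differences of dim genes are understated. Gene symbols came from the platform annotation: 34958 probe sets had 1 symbol, 932 had several and 9211 had none. Of the first, 34754 matched a RefSeq gene by their gene ID, and genes were defined by the annotated symbol. The 24 groups of region, age and genotype entered 1 linear model without covariates, lmFit and eBayes of limma 3.58.1 (R 4.3.3), on the deposited log2 values of all arrays, which left 48 residual degrees of freedom. Calls needed a moderated t of 4 or more in size, and p-values adjusted over the whole array by the method of Benjamini and Hochberg had to reach 0.05; counts over all genes use 1 probe set for each of 18194 genes.

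Named genes are every member above the arrays' median, the members with the 3 highest and 3 lowest moderated t of an age or region comparison, and any member called between genotypes; those lost or gained under another setting were named after their values were seen. The members, the gene lists (collagen biosynthesis and crosslinking, receptors, fibril partners, basement membrane partners, and markers of meninges, endothelium, mural cells, choroid plexus, cerebellum, forebrain and hippocampus) and these tests were chosen with earlier results of these data known. Of 120 listed genes 111 were matched, and *Lum* and *Dcn* stand in both the fibril partner and the meninges list. Alternatives were the adjusted p alone, a block for the replicate number, the mouse as a random block, quantile normalisation, a filter at a mean of 5, a trended robust prior, the mean of all probe sets of a gene, 1 fit per region, and leaving out each set of replicates. Leaving out the displaced or dim arrays was chosen after seeing the data. The procedure was tested on simulated data with known changes.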

Additional observations from a re-analysis of the deposited data

Results flagged for a closer look

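Several collagens changed by different amounts from P1 to P84 in different regions, and each difference named here was called by limma as a test of the difference itself. Between cerebellum and cortex the change in cerebellum was the lower one for *Col25a1* (-4.32), *Col6a1* (-4.03), *Col3a1* (-3.04), *Col11a1* (-2.67), *Col26a1* (-2.25), *Col4a2* (-2.23) and *Col4a1* (-1.99). It was also lower for *Col4a5* (-1.89), *Col24a1* (-1.85), *Col5a1* (-1.69), *Col2a1* (-1.49), *Col23a1* (-1.15), *Col6a3* (-1.02), *Col6a2* (-0.86), *Col9a2* (-0.79) and *Col14a1* (-0.60). It was the higher one for *Col18a1* (3.10). Of these, *Col3a1* lost its call without Ts1Cje replicates 1 or 3 or disomic replicates 2 or 3 (-4.19 to -2.44), *Col4a5* without Ts1Cje replicate 1 or disomic replicate 2, *Col2a1* without Ts1Cje replicates 1 or 2 or the dim arrays (-1.19), and *Col6a2* and *Col9a2* without Ts1Cje replicate 3. *Col23a1* lost it without Ts1Cje replicates 1 or 2, disomic replicates 1 or 2 or the dim arrays (-1.19).

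Between hippocampus and cortex the change in hippocampus was lower for *Col19a1* (-1.48), *Col5a1* (-1.43) and *Col24a1* (-1.08), and each of these calls was lost without Ts1Cje replicate 3, as well as without disomic replicate 3 for *Col5a1*, disomic replicate 1 for *Col24a1*, and Ts1Cje replicate 1 or disomic replicate 2 for *Col19a1*. Between cerebellum and hippocampus the change in cerebellum was lower for *Col25a1* (-4.39), *Col6a1* (-2.42), *Col11a1* (-2.02), *Col4a2* (-1.82), *Col4a1* (-1.41) and *Col26a1* (-1.36), and higher for *Col18a1* (3.27) and *Col19a1* (2.18). The sets whose removal ended calls among them are given with the genes above.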

How the results depend on the processing

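Calls of single members in age and region comparisons kept their direction under each alternative that tested them (1 fit per region covered 89 of the 169 and the mean filter 48, while the rest covered them all), and 57 of 169 were lost without at least 1 of the 6 sets of replicates. Under quantile normalisation, the mouse as a random block, the trended robust prior and without the 3 dim arrays, all counts of called members stayed within 1.5 times those reported. With the adjusted p alone the counts were 20 instead of 11 for P15 minus P1 in cortex, 22 instead of 13 in cerebellum and 14 instead of 4 in hippocampus, 11 instead of 6 for P30 minus P15 in cerebellum, 10 instead of 5 between hippocampus and cortex, and 6 instead of 3 and 15 instead of 8 for the differences in P84 minus P1 between hippocampus and cortex and between cerebellum and hippocampus. The filter at a mean of 5 left 6 members to test, which gave 2, 1 and 1 calls for P15 minus P1 in cortex, cerebellum and hippocampus, 3 for P30 minus P15 in cerebellum, 4, 6 and 2 for P84 minus P1, 6 between cerebellum and cortex, 0 between hippocampus and cortex, 6 between cerebellum and hippocampus, and 4, 1 and 4 for the differences between regions in P84 minus P1. With 1 fit per region the hippocampus had 7, 5 and 1 calls in its successive intervals instead of 4, 3 and 0. With the mean of all probe sets of a gene, P84 minus P30 in cerebellum had 1 call instead of 3. Without the 5 displaced or dim arrays it had 5, and P15 minus P1 in hippocampus had 7.

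The genotype comparisons had 1 call of a member under the replicate block (*Col19a1* in P84 hippocampus, adjusted p = 0.0167), 1 without the displaced arrays (*Col2a1*) and 1 without the 5 displaced or dim arrays (*Col15a1* in P1 cerebellum, -0.62, adjusted p = 0.0416), and the averages over ages had 1 under the block (*Col19a1* in hippocampus, 0.66, adjusted p = 0.00155) and 1 with the mean of all probe sets (*Col19a1*, 0.36, adjusted p = 0.0432). The replicate block also gave 1 call instead of 0 for P84 minus P30 in cortex, and kept every other count within 1.5 times. Same-numbered mice of both genotypes had correlations of deviations from -0.259 to 0.699 (median 0.178, 23 of 36 over 0.1). The labels do not say that a number marks a pair, and the main fit took none. Since most of these correlations were positive, an effect shared by same-numbered mice is not excluded.

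Leaving out 1 set of replicates gave 0 to 2 calls over the genotype comparisons and 0 to 2 over the averages. For P15 minus P1 the counts ran from 7 to 10 in cortex, 10 to 15 in cerebellum and 4 to 8 in hippocampus; for P30 minus P15, 2 to 6, 4 to 7 and 2 to 4; for P84 minus P30, 0 to 0, 1 to 3 and 0 to 0; and for P84 minus P1, 7 to 12, 16 to 23 and 7 to 13. Between cerebellum and cortex they ran from 21 to 25, between hippocampus and cortex from 3 to 5 and between cerebellum and hippocampus from 19 to 25. For the differences between regions in P84 minus P1 they ran from 13 to 17, 0 to 5 and 5 to 11 in the same order. Causes were not tested, and signal near the array background limits the dim members.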
